A study of Mus musculus with 12 samples.

Results

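The genes described here are 33 genes that mark T, natural killer (NK) and B lymphocytes, read from bulk RNA-seq of mouse liver and white fat. They were taken by name from the deposited count table. The names match 35 of its 54532 rows, because Ccl19 and Ccl21a each have a row on chromosome 4 and a row on the unplaced scaffold JH584294.1. By role the 33 genes are 9 T cell receptor and co-receptor genes, 2 kinases, 3 genes for a cytokine, a cytokine receptor and homing, 7 cytotoxic and NK genes, 10 B cell genes and 2 chemokine genes of lymphoid stroma. Liver and inguinal white adipose tissue (WAT) came from male mice aged 52 weeks after a 12-hour fast. By their labels the animals were either wild type (WT) or carried a global deletion of the cluster of miR-322, miR-503 and miR-351 (KO, used below for libraries so labelled). Each of the 4 groups, WT liver, KO liver, WT WAT and KO WAT, held 3 libraries. Fasting, age and sex were shared by all groups. The deletion is labelled as global, so lymphocytes and the tissue around them carry it alike. The labels do not say whether libraries of a group came from separate animals, so p-values measure only the spread between these libraries, which may be technical.

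T cells recognise antigen through a receptor that signals through the CD3 chains, the co-receptors CD4 or CD8 and the kinases LCK and ZAP70. B cells carry an immunoglobulin with CD79A and CD79B, and NK cells and cytotoxic T cells kill with perforin and granzymes. Inguinal fat holds resident lymphocytes and also surrounds a lymph node, where stromal CCL19 and CCL21 attract CCR7-bearing cells, while liver holds lymphocytes, many NK cells among them, in its sinusoids.

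The microRNAs named in the genotype label are shown because their seeds, bases 2 to 8 in capitals, give the sites that were searched in the lymphocyte genes. The sequences are RefSeq entries on GRCm38.p6, on the minus strand at chrX:53054306-53054327, chrX:53054027-53054049 and chrX:53053315-53053338. The first 2 seeds differ only in their last base, and the seed of miR-351-5p is unlike both.
mmu-miR-322-5p: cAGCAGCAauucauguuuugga
mmu-miR-503-5p: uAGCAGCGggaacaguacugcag
mmu-miR-351-5p: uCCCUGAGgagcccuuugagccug

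Sites that pair with a whole seed were looked for in the longest 3' UTR of each gene in GENCODE M21 (GRCm38). The site TGCTGCT of miR-322-5p was found in 5 of 33 rows with a UTR (Blk, Ccr7, Cr2, Il7r and Pax5), against 22.2% of 21148 genes. The site CTCAGGG of miR-351-5p was found in 3 (Cd247, Cd3g and Il7r), against 14.1%, and the site CGCTGCT of miR-503-5p in 1 (Cd4), against 4.56%. Il7r was the only row with sites for more than 1 of the microRNAs. A match is a run of letters and not a measured binding site. The 5 windows below, with the site in capitals, are from Cd4, Il7r, Cd247 and Cd3g, whose values are given further on. The sites begin at position 220 of a UTR of 1553 bases in Cd4, positions 1417 and 1910 of 2569 in Il7r, position 597 of 2188 in Cd247 and position 12 of 363 in Cd3g.
Cd4, miR-503-5p site: tatttattcttCGCTGCTgcctttctgcc
Il7r, miR-322-5p site: catgattttccTGCTGCTattatccattg
Il7r, miR-351-5p site: ttgattatattCTCAGGGactgcatgcaa
Cd247, miR-351-5p site: ttacattagaaCTCAGGGagctaagaaag
Cd3g, miR-351-5p site: actcagcaggaCTCAGGGtgtcccccctt

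Promoter windows of RefSeq (GRCm38.p6, 250 bases before to 50 after a start) were given for 23 of the 33 genes, in 29 windows. The core TGTGGTT of RUNX factors, which act in T and NK cell development, lay on either strand in 6 of the 29 windows, of Gzma, Gzmb, Il7r, Lck and Ncr1, against 5.27% of 32851 windows of all genes. Both Ncr1 windows with a match hold the same site, which is counted in each. The core CCCNNGGG of the B cell factor EBF1 lay in 3 windows (Cd22, Prf1 and Zap70), against 13.7%, and the octamer ATGCAAAT in 0, against 1.74%. The windows of the T cell kinase gene Lck, the granzyme gene Gzma and the cytokine receptor gene Il7r are shown for the RUNX core, in capitals. They lie at chr4:129573682-129573710, chr13:113101015-113101043 and chr15:9529856-9529884, all on the minus strand, and the Gzma match is on the opposite strand of its window.
Lck: tgctggaggctTGTGGTTgggttgctggg
Gzma: gagaagaacaaAACCACAtcctttgcact
Il7r: agttccctgtcTGTGGTTtagcaggcaca

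Library totals lay between 14531438 and 15971178 counts, at which 3 counts in 1 library are 0.188 to 0.206 CPM (counts scaled to the library total). The rows of Mir322 and Mir503 had 0 counts in all 6 KO libraries, and 10 to 15 and 10 to 21 counts in WT fat. Mir351 went against the label, with more counts in KO libraries (11 to 17 in liver and 38 to 60 in fat) than in WT libraries (2 to 5 and 9 to 13). Summed marker levels matched the labelled tissues, with 12 adipocyte genes at 34070 to 48276 CPM in fat and 12 hepatocyte genes at 118475 to 140790 CPM in liver. Fat libraries also held hepatocyte transcripts, with Alb at 29409, 1993 and 1116 counts in WT and 29057, 3561 and 11595 in KO.

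Mean CPM on library totals was higher in fat than in liver for 32 of 35 rows in WT and 30 of 35 in KO. Zap70 went the other way in both. Apart from Ighm and Il7r, no row averaged more than 7.20 CPM over the fat libraries. Of the 35 rows, 32 had a count in every WT WAT library and 29 in every KO WAT library, against 17 and 19 in WT and KO liver. Only Ccl19 had no count in any library, in either of its rows. In bulk tissue, fewer cells of a type and less RNA per cell cannot be told apart. The map of levels by library shows the genes in the order of the text.

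**Figure D1:**
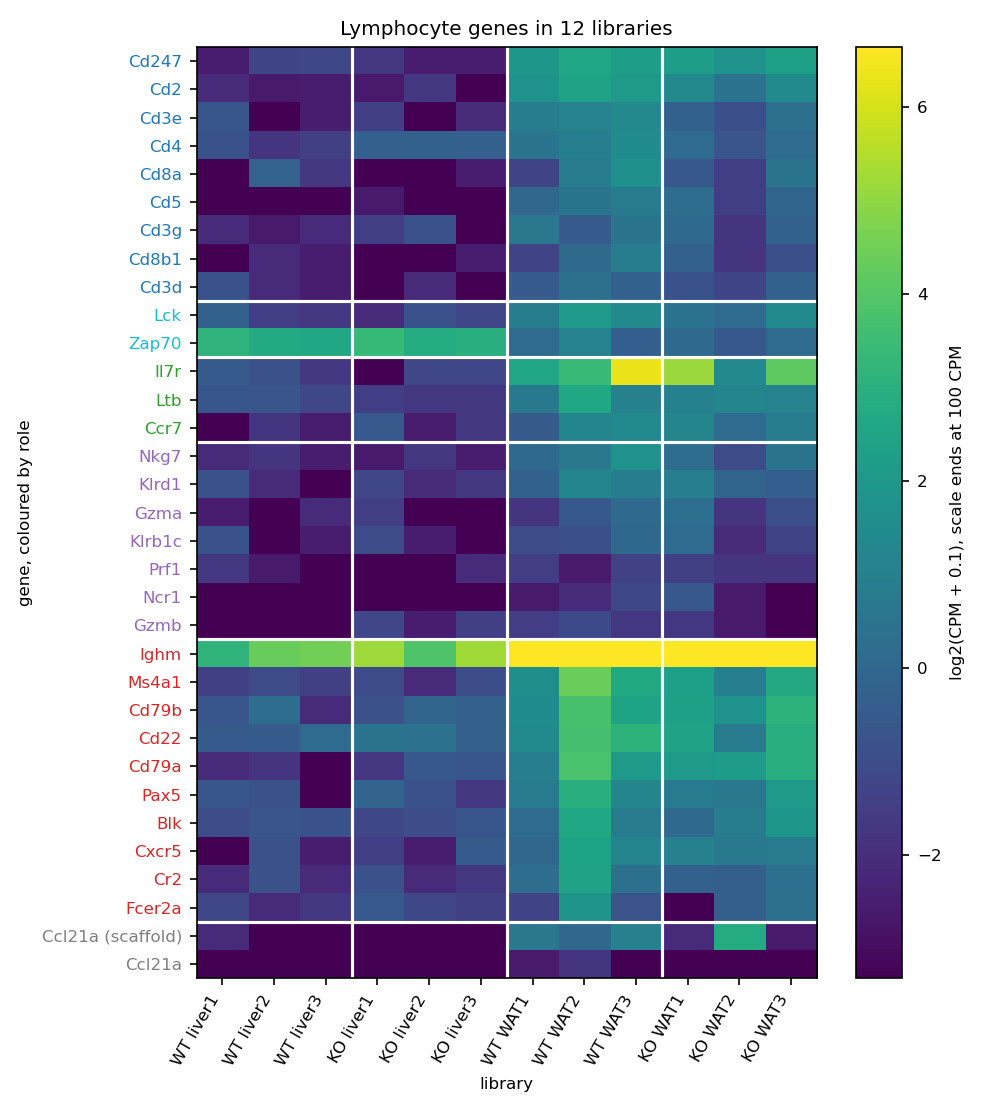
Level of each lymphocyte gene (rows, coloured and ordered by role) in each of 12 libraries (columns), as log2(CPM + 0.1); white lines part the groups and roles, and 100 CPM and above share the brightest colour. Ighm and Il7r stand out in fat, Zap70 stands out in liver, and the B cell genes are brightest in WT WAT library 2.

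Among the T cell receptor genes, Cd247, which encodes the CD3 zeta chain, was the most even in fat. Its counts were 60, 90 and 68 in the 3 WT libraries and 70, 53 and 78 in the 3 KO libraries. The groups overlapped, and the KO minus WT log2 fold change was -0.10 ± 0.28 (SE), with an adjusted p of 0.94 by edgeR's quasi-likelihood test with Benjamini-Hochberg adjustment over all genes, which gives all genotype and tissue p-values here. Cd247 overlaps Pou2f1 on the other strand (246 to 374 counts in fat), and without the counting strand their reads cannot be told apart.

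Cd3e, a core CD3 chain, had 28, 33 and 36 counts in WT fat and 11, 7 and 19 in KO fat. Every KO library lay below every WT library, at 0.798 ± 0.378 against 2.11 ± 0.354 CPM (SD, n = 3 each). The log2 fold change was -1.37 ± 0.46, with an unadjusted p of 0.015 and an adjusted p of 0.65, so the difference did not pass the test over all genes.

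Cd4, the co-receptor of helper T cells, and Cd2, an adhesion receptor of T and NK cells, had the same order. Cd4 had 21, 29 and 39 counts in WT fat and 15, 8 and 16 in KO fat. Cd2 had 52, 84 and 58 in WT fat and 36, 20 and 41 in KO fat. Neither gene's groups overlapped, and the log2 fold changes were -1.17 ± 0.47 for Cd4 and -0.98 ± 0.36 for Cd2, both with an adjusted p of 0.65 (edgeR). Without 1 library at a time they stayed below 0, between -1.40 and -0.89 for Cd4, between -1.14 and -0.73 for Cd2 and between -1.78 and -1.10 for Cd3e, with the lowest adjusted p at 0.39 over all settings.

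The other T cell receptor genes were rarer and their groups overlapped. Cd3d and Cd3g, further CD3 chains, had 3 to 23 counts per fat library. Cd5, which dampens receptor signals, had 4 to 23, and the chains of the CD8 co-receptor of cytotoxic T cells, Cd8a and Cd8b1, had 3 to 45. Their log2 fold changes lay between -1.22 for Cd8a and -0.71 for Cd3d. Summed over the 9 genes, WT fat had 13.81, 20.6 and 22.4 CPM and KO fat 12.8, 6.84 and 13.80 CPM. The groups met at 13.81 and 13.80 CPM, so they adjoined.

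The kinases differed from each other by tissue. Lck, which phosphorylates the CD3 chains, had 28, 64 and 37 counts in WT fat and 19, 16 and 41 in KO fat, with overlapping groups and a log2 fold change of -0.75 ± 0.48 (adjusted p 0.71, edgeR). Zap70, which binds the phosphorylated chains, had 16, 33 and 10 counts in WT fat and 14, 9 and 16 in KO fat (log2 fold change -0.56 ± 0.54, adjusted p 0.79).
In liver the order turned. Zap70 had 131, 104 and 89 counts in WT liver and 155, 101 and 118 in KO liver, while Lck had 2 to 11 counts per liver library. The ratio of Zap70 to Lck counts was 11.9 to 77.5 in liver and 0.27 to 0.737 in fat.

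Zap70 was the one gene of the list that was lower in fat than in liver at the threshold, in both genotypes. It fell by 3.32 on the log2 scale in WT (SE 0.41, adjusted p 0.00011) and by 4.13 in KO (SE 0.31, adjusted p 1e-06, edgeR). No fat library reached any liver library. The 9 T cell receptor genes summed to only 1.08 to 1.83 CPM in liver, where Zap70 alone had 6.02 to 10.2 CPM. The liver levels of Zap70 did not differ at the threshold between genotypes (log2 fold change 0.25 ± 0.21, adjusted p 0.66).

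Il7r encodes the receptor chain for the T cell survival factor interleukin 7. By edgeR's estimate of spread beyond counting error, it varied most in fat among the tested rows other than Ccl21a. That estimate was 1.07 for Il7r and 1.03 for Fcer2a. In WT and KO fat, Il7r was counted as follows. Its counts were 92, 172 and 1181 in WT fat and 522, 39 and 283 in KO fat. The highest and lowest libraries differed 32.6-fold and the groups overlapped throughout (log2 fold change -0.80 ± 1.40, adjusted p 0.90, edgeR). Without WT WAT library 3 the log2 fold change turned to 1.16.
Il7r did not follow the T cell receptor genes, as its ratio to Cd3e ran from 3.29 to 47.5. The libraries highest in Il7r, WT WAT 3 and KO WAT 1, were also highest for 10 genes of all leukocytes (960 and 646 CPM, against 288 to 473 in the others) and for 21 macrophage and myeloid genes (3227 and 2914 CPM, against 1209 to 1996). The part of these cells in the Il7r values was not tested.

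Ltb, a cytokine subunit by which lymphocytes act on lymphoid stroma, had 24, 95 and 28 counts in WT fat and 29, 36 and 32 in KO fat. WT WAT library 2 alone stood above the rest. The log2 fold change of -0.56 ± 0.53 (adjusted p 0.79, edgeR) turned to 0.31 without that library. Ccr7, the receptor that guides naive T cells to lymphoid tissue, had 10 to 37 counts and a log2 fold change of -0.11 ± 0.55.

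Cytotoxic and NK genes had few counts in fat. Nkg7, a granule protein of killer cells, had 15, 24 and 48 counts in WT fat and 16, 6 and 21 in KO fat (log2 fold change -1.02 ± 0.61, adjusted p 0.69, edgeR). Klrd1, which encodes the CD94 chain of NK receptors, had 12, 36 and 26 in WT fat and 27, 13 and 11 in KO fat (-0.50 ± 0.56, adjusted p 0.82). Both genes overlapped between genotypes. The log2 fold change of Nkg7 was -0.39 without WT WAT library 3, and that of Klrd1 lay between -1.05 without KO WAT library 1 and -0.17 without WT WAT library 2.
Gzma, granzyme A, had 3, 9 and 14 counts in WT fat and 17, 3 and 7 in KO fat. Klrb1c, the NK1.1 antigen, had 6, 7 and 13 in WT fat and 15, 2 and 5 in KO fat. For both, KO WAT library 1 was highest and the groups overlapped. Gzmb (granzyme B), Prf1 (perforin) and Ncr1 (the NK receptor NKp46) had 0 to 8 counts per fat library, and with Gzma and Klrb1c they were too rare for the test. Ncr1 had 0 counts in all 6 liver libraries. The 7 genes summed to 2.85, 5.32 and 7.78 CPM in WT fat and 6.12, 1.85 and 2.96 CPM in KO fat.

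Of the 10 B cell genes, 9 had their highest fat level in WT WAT library 2, as had 5 of the 11 T cell receptor and kinase genes. Ms4a1, which encodes CD20, had 48, 330 and 94 counts in WT fat and 72, 29 and 100 in KO fat. Cd79b, a signalling chain of the B cell receptor, had 44, 214 and 79 in WT fat and 75, 53 and 137 in KO fat. Cd22, an inhibitory co-receptor, had 40, 208 and 125 in WT fat and 77, 25 and 120 in KO fat. In all 3 genes WT WAT library 2 was highest, and the groups overlapped. The log2 fold changes were -1.21 ± 0.79 for Ms4a1, -0.33 ± 0.60 for Cd79b and -0.74 ± 0.72 for Cd22, with adjusted p-values of 0.73, 0.90 and 0.79 (edgeR). Without WT WAT library 2 they were -0.12, 0.49 and -0.20.

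Cd79a (partner of CD79B), Pax5 (the B lineage transcription factor), Blk (a B cell kinase), Cr2 (complement receptor CD21), Fcer2a (CD23) and Cxcr5 (the receptor for the follicle chemokine CXCL13) all had their highest level in WT WAT library 2. Without Ighm, the B cell genes summed to 15.1, 88.5 and 32.3 CPM in WT fat and 24.6, 17.3 and 41.8 CPM in KO fat. Cr2 had a log2 fold change of -1.51 ± 0.67 with an adjusted p of 0.65 (edgeR), and of -0.36 without WT WAT library 2. Cxcr5 overlaps Bcl9l on the other strand, which had 1274 to 2791 counts in fat, so its reads are uncertain. Cxcl13 was itself highest in WT WAT library 2, at 104, 661 and 399 counts in WT fat and 174, 86 and 435 in KO fat.

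Ighm, the constant region of immunoglobulin M, did not share this order. It had 3947, 15681 and 19822 counts in WT fat and 20742, 9595 and 19139 in KO fat. WT WAT library 1 was lowest, the groups overlapped, and the log2 fold change was 0.33 ± 0.65 (adjusted p 0.91, edgeR). Per kilobase of exon, Ighm averaged 515 CPM over the fat libraries, against 4.06 for Cd79a and 4.51 for Cd79b. The ratio of Ighm to Cd79a counts ran from 72.6 in WT WAT library 2 to 340 in KO WAT library 1. Igkc and Jchain, antibody genes abundant in plasma cells, summed to 62.3, 394 and 491 CPM in WT fat and 439, 37.2 and 290 CPM in KO fat, and their part in Ighm was not tested.

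**Figure D2:**
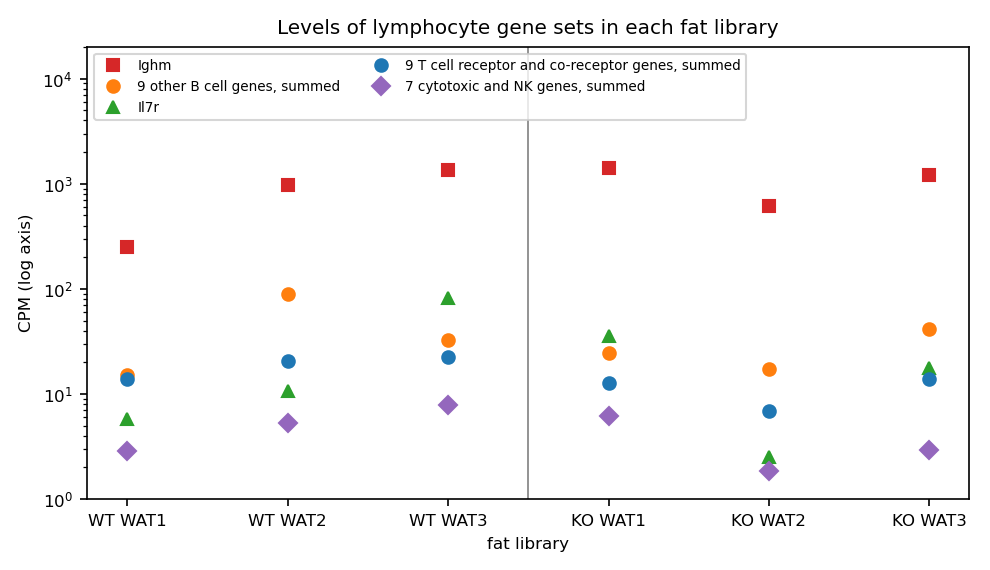
CPM on a log axis in each of 6 fat libraries for Ighm, Il7r and the summed T cell receptor, B cell and cytotoxic genes; each point is 1 library. The B cell genes other than Ighm peak at 88.5 CPM in WT WAT 2, Il7r at 81.3 CPM in WT WAT 3, and T cell receptor genes are lowest at 6.84 CPM in KO WAT 2.

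Of the chemokine genes of lymphoid stroma, Ccl19 had no count and Ccl21a was counted mostly on its scaffold row. The Ccl21a row on the scaffold had 23, 14 and 28 counts in WT fat, and 2, 109 and 1 in KO fat. Thus 1 KO library held nearly all KO counts. The log2 fold change of 0.81 ± 1.52 (adjusted p 0.90, edgeR) became -3.73 without it. The Ccl21a row on chromosome 4 had 1, 3 and 0 counts in WT fat and 0 in KO fat. Ccl21 genes have near-identical copies, so the split between rows is uncertain. Markers of a lymph node other than these were mixed. Glycam1 had 0 to 3, Madcam1 0 to 6 and Ccl21b 0 counts in all fat libraries, while Cxcl13, Chst4 (122 to 254) and Pdpn (418 to 653) were present. Of 12 tested among 20 rows of lymph node stroma genes, 8 were called higher in WT fat than in WT liver (edgeR), against 37.3% of all genes. Another 3 were called lower, against 33.5%. Only 7 rows of this list were tested in liver between genotypes. Rows that entered the tissue fit through fat alone had to differ, so these counts are a description. Between genotypes in fat, 6 of 11 tested lay below 0 (median -0.08). The part of lymph node tissue in the fat libraries was not tested.

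In fat, no lymphocyte gene passed the genotype test. Of 27 rows abundant enough to be tested, 0 were called, against 0.0% of 15919 genes, and DESeq2 and limma voom also called 0 of the lymphocyte genes. Over all genes DESeq2 called 43 and limma voom 0. At an unadjusted p under 0.05 there were 3 rows (Cd2, Cd3e and Cd4), or 11.1%, against 7.64% of all genes. The same 3 had KO libraries all below the WT libraries, against 7.8% of all genes. The log2 fold change was below 0 for 25 of 27 rows, against 50.4% of all genes, with a median of -0.74 against -0.003. The exceptions were Ighm and the scaffold row of Ccl21a.

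That count rested in part on WT WAT library 2. Without it 16 of 29 tested rows lay below 0, with a median of -0.17. The T cell receptor genes then had 8 of 9 below 0 and a median of -1.11, against -0.98 with all libraries. Their median was -0.71 without WT WAT library 3 and -0.73 without KO WAT library 2. Cd8a and Cd8b1 moved to -0.46 and -0.52 without WT WAT library 3. Without WT WAT library 2, the B cell genes moved from 9 of 10 below 0 and a median of -0.70 to 3 of 10 and 0.39. With another fat library left out instead, their median lay between -1.14 and -0.38. Most B cell genes were highest in WT WAT library 2, so their shift without it is a description. The genotype difference between T and B cell genes was not tested. The genes share libraries and cells, so their number is not a number of independent observations.

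**Figure D3:**
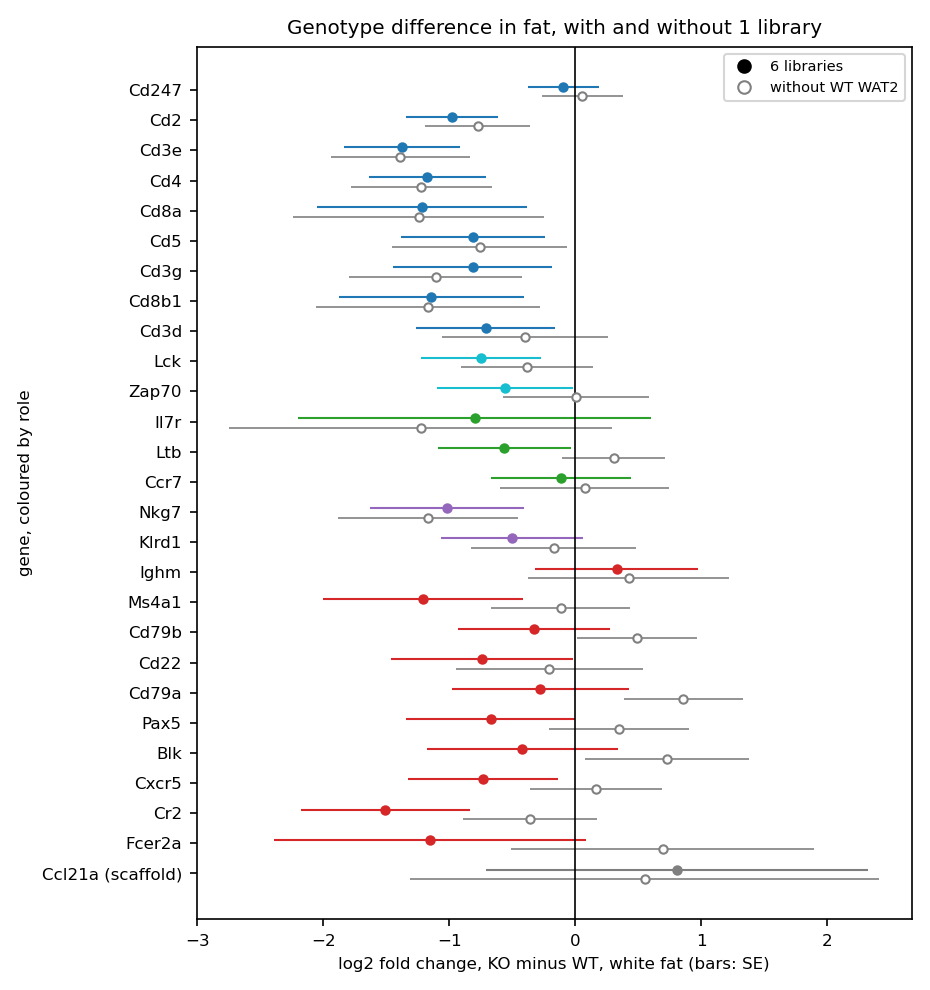
KO minus WT log2 fold change in fat for 27 tested rows, with bars of 1 SE; filled points use all 6 libraries and open points leave out WT WAT 2. T cell receptor genes keep their place left of 0 except Cd247, while most B cell genes move to or past 0.

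The wider set of lymphocyte genes was also not called in fat. Of 35 tested among 44 other T and NK genes, 30 lay below 0 (median -0.37), with Klf2, S1pr1 and Thy1 the most abundant, which other cells of fat also express. Of 34 tested among 38 other B and plasma cell genes, 29 lay below 0 (median -0.38), with Xbp1, Igkc and Ebf1 the most abundant. Among 10 genes of all leukocytes 9 lay below 0 (median -0.34), and among 20 tested macrophage and myeloid genes 11 did (median -0.05). None of these lists had a called gene, as no gene was called at all. In the same contrast 12 of 12 hepatocyte genes lay above 0 (median 0.53) and 8 of 10 proliferation genes below 0 (median -0.30). All 5 tested epithelial genes lay above 0 (median 0.69), 4 of them at an unadjusted p under 0.05, and all 5 erythroid genes below 0 (median -0.33). The part of these cells in the lymphocyte values was not tested.

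**Figure D4:**
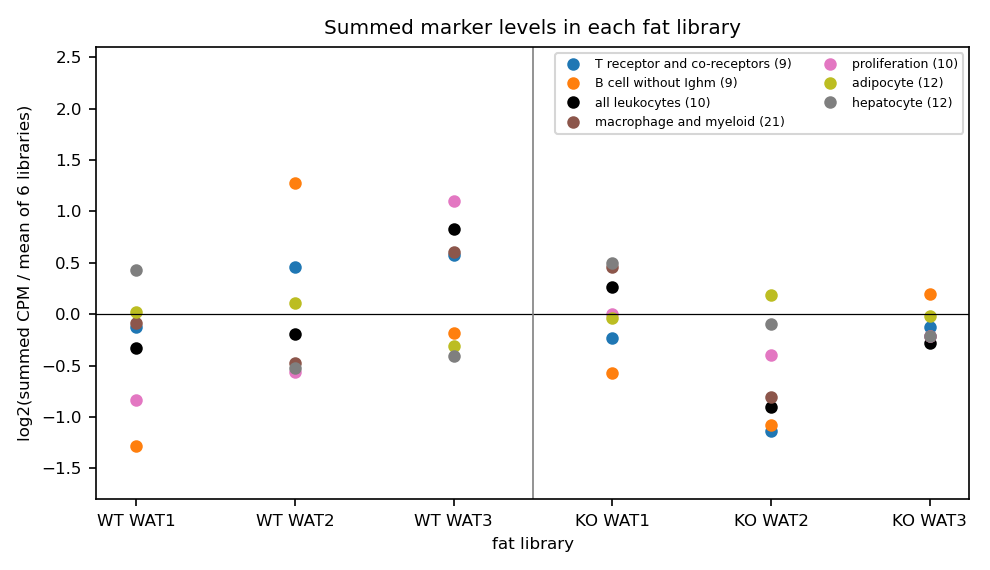
Summed CPM of each marker list in each fat library, as log2 of its ratio to the mean of the 6 libraries; each point is 1 library and list sizes are in the legend. B cell genes depart most in WT WAT 1 and 2, leukocyte, macrophage and proliferation genes are highest in WT WAT 3, and adipocyte genes stay near 0.

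The spread between fat libraries was wide for these genes. The highest of 6 libraries was 5.86-fold above the lowest at the median of 26 rows, against 1.66-fold for all genes. The SD of log2 CPM within groups had a median of 0.877 against 0.259, and it was 1.02 in WT and 0.635 in KO. Both measures include counting error, which weighs more on genes with few counts, as most of these genes were. WT WAT library 2 was the highest fat library for 18 of 33 rows and WT WAT library 3 for 9, and KO WAT library 2 was the lowest for 18. The biological coefficient of variation, edgeR's estimate of spread beyond counting error, ran from 0.289 for Cd247 to 1.07 for Il7r and 1.24 for Ccl21a. Its median was 0.517, against 0.223 for all genes, which were not matched for level.

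In liver, 5 genes were abundant enough for the genotype test and 0 passed it, against 0.155% of 13529 genes. The other 30 rows were too rare there to be tested, with at most 12 counts in any liver library. Ighm had 131, 309 and 338 counts in WT liver and 550, 219 and 548 in KO liver, a log2 fold change of 0.80 ± 0.54 (adjusted p 0.62, edgeR). Cd22 had 9, 10 and 15 in WT liver and 20, 18 and 11 in KO liver (0.56 ± 0.46, adjusted p 0.64). These groups overlapped. Cd79b had 2 to 17 counts per liver library (0.20 ± 0.64).

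By CPM, 3 rows too rare to test in liver did not overlap between genotypes, at 0 to 8 counts per library. Cd79a and Gzmb were higher in KO and Ltb was lower. The share of all genes without overlap in liver was not computed, so no such count in liver is a result about these genes. Among the 5 tested genes, Cd4 was the one whose groups did not overlap. It had 7, 3 and 4 counts in WT liver and 11 in each KO liver library, a log2 fold change of 1.26 ± 0.56 with an unadjusted p of 0.044 and an adjusted p of 0.40 (edgeR). It was the 1 of 5 genes at an unadjusted p under 0.05, against 12.2% of all genes. Cd4 entered this fit through its KO libraries alone, as its WT liver counts were too low, so its values are a description. All 5 log2 fold changes were above 0, against 49.9% of all genes, but over 31 rows with any count, fitted without a filter, 18 were. DESeq2 and limma voom also called 0 lymphocyte genes in liver. Gzmb had 0 counts in WT liver and 5, 1 and 4 in KO liver, which is at least 3.37-fold higher if the WT group is set at its floor of 3 counts, covering counting error only.

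The difference of the genotype effects between tissues was tested for 27 rows, of which 0 passed, against 0.0% of 16857 genes. Cd4 alone had an unadjusted p under 0.05, against 13.4% of all genes. Its KO minus WT log2 fold change was lower in fat than in liver by a difference of -2.45 ± 0.70 (unadjusted p 0.0037, adjusted p 0.23, edgeR). Over all settings the lowest adjusted p of any lymphocyte gene in this test was 0.13. DESeq2 and limma voom called 0 lymphocyte genes here, and over all genes 188 and 0.

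Between tissues, most of the tested genes were higher in fat. In WT, 19 of 22 tested rows were higher in fat, against 37.3% of 15715 genes, and Zap70 was the 1 lower row, against 33.5%. In KO, 12 of 18 were higher, against 36.8% of 15648 genes, and Zap70 was again the 1 lower row, against 32.6%. The tested rows that were not called were Blk (adjusted p 0.052) and Cd8a (0.25) in WT, and Pax5 (0.0504), Cd22 (0.054), Klrd1 (0.058), Cr2 (0.22) and Cd4 (0.23) in KO (edgeR). Rows that entered these fits through fat alone had to differ, so the counts are a description. The 20 calls in WT became 13 without WT liver library 3. The WT and KO comparisons share no library.

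Of the 5 genes tested in liver over both genotypes, Ighm, Cd22, Cd79b and Cd4 were higher in WT fat and Zap70 was lower. In WT liver alone, Cd4 had 3 to 7, Cd22 9 to 15 and Cd79b 2 to 17 counts per library. Those genes entered the WT fit through fat, so only Ighm and Zap70 are free of that selection there. Ighm was 28.3-fold higher in WT fat (adjusted p 0.0044) and 20.4-fold higher in KO fat (adjusted p 0.00017, edgeR). Cd79b was 6.80-fold and 4.71-fold higher (adjusted p 0.015 and 0.0011, edgeR), and its WT call was lost without WT liver library 1 (adjusted p 0.065). Cd22 was 5.99-fold higher in WT (adjusted p 0.0059, edgeR), a call lost with limma voom (adjusted p 0.059), and its difference in KO did not pass (adjusted p 0.054, edgeR).

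Genes not tested in liver are described here by their levels, as CPM on library totals or as counts. The edgeR folds between tissues also apply scaling factors (TMM), of 0.741 to 0.766 in WT liver and 1.32 to 1.35 in WT fat. Ratios of these CPM are therefore larger than the edgeR folds. Cd2 had 4.18 and 2.10 CPM in WT and KO fat, against 0.0891 and 0.0902 in liver. Il7r had 32.6 and 18.6 CPM in fat, against 0.421 and 0.226 in liver. Ms4a1 had 10.1 and 4.35 CPM in fat, against 0.309 and 0.312 in liver. Cd5 had 14, 22 and 23 counts in WT fat and 0 in WT liver. With WT liver as a group set at 3 counts, this is at least 19.2-fold higher on library totals. The scaling factors were not applied to this bound and would lower it.

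Cd4 was called between tissues in WT only. It was 3.47-fold higher in WT fat (SE of 0.51 on the log2 scale, adjusted p 0.012) and had a log2 fold change of -0.64 ± 0.45 in KO (adjusted p 0.23, edgeR). The same 2 differences between tissues and genotypes are what the test above compared, at an adjusted p of 0.23. The call in WT was lost at adjusted p-values of 0.059 and 0.052 without WT liver libraries 2 and 3. On library totals, without the scaling factors, the KO mean of Cd4 was 0.847 CPM in fat and 0.739 CPM in liver.

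**Figure D5:**
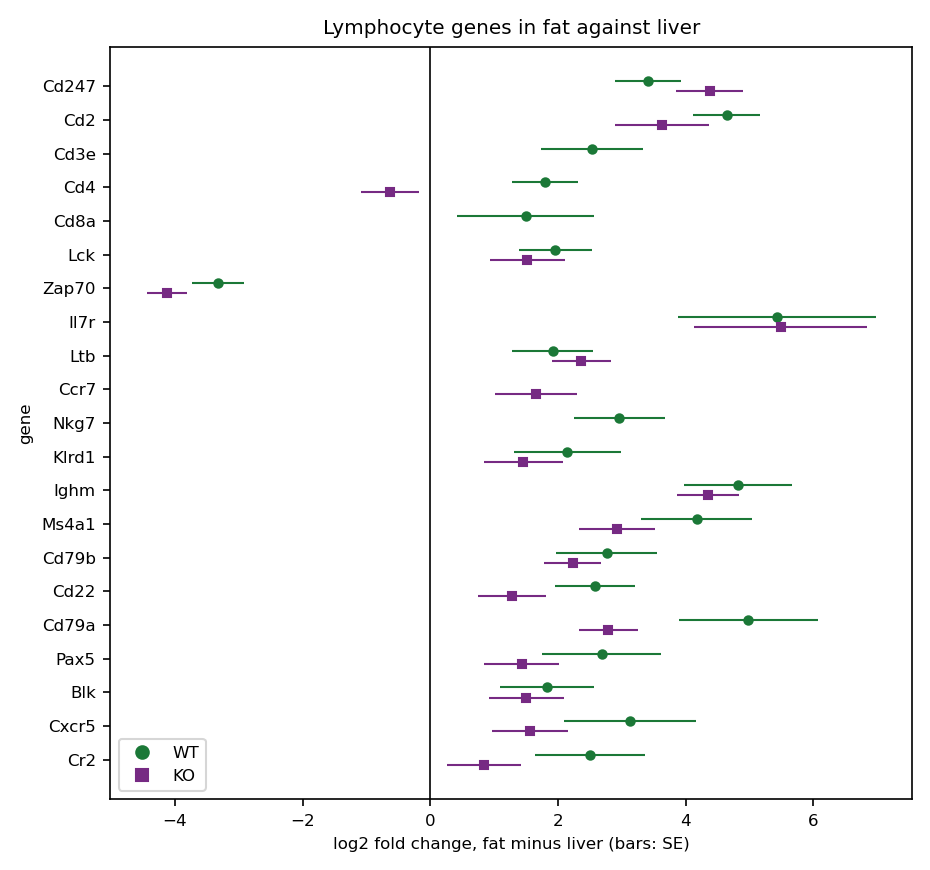
Fat minus liver log2 fold change of each tested lymphocyte gene in WT (circles) and KO (squares), with bars of 1 SE; genes with 3 counts or fewer in a group are not drawn. Zap70 lies at -3.32 and -4.13, Cd4 right of 0 in WT and at -0.64 in KO, and the other genes drawn lie right of 0. Rows that entered the fits through fat alone had to lie there, so their side is a description.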

How the data were processed

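Libraries of total RNA (2 µg, directional kit, per the labels' protocols) were sequenced from 4 groups of 3. The deposited table holds raw read counts per gene, which the authors did not normalise as far as the values show. Per the submitters' processing notes, CASAVA 1.8 and HISAT2 were used, with GRCm38 and mm10. What counted the reads, on which strand and with which gene models is "not given in the sources used here". Among 54532 genes, 54409 matched GENCODE M21, as did 33 of the 35 rows described here. CPM were computed from library totals.

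Each comparison was fitted over all genes with edgeR 4.0.16 in R 4.3.3 (TMM, filterByExpr, robust quasi-likelihood F test), and genes were called at 0.05 after Benjamini-Hochberg adjustment. The fits were tested on simulated counts. Alternatives were DESeq2 size factors, upper quartile factors, no filter, at least 1 CPM in 3 libraries, DESeq2 1.42.0, limma 3.58.1 voom, no robust step, a replicate block, removal of GC and length trends, all 4 groups in 1 fit, and each library left out. Pairs of libraries within groups differed by more than counting noise, so each counted as 1 sample. Standard errors and floors of 3 counts cover what is stated beside them, and floors cover counting error only.

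The genes and lists were chosen with earlier results of these data known. Counts per library are given for the most abundant genes of each role in fat (up to 4 or 2) and the 3 most abundant in liver. Genes outside the lists, and counts of other genes, were chosen after their values were seen. A protein motif search was not analysed here.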

Additional observations from a re-analysis of the deposited data

Results flagged for a closer look

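Cd4 stood out because its genotype difference had opposite directions in the tissues. KO libraries were all below WT in fat and all above WT in liver, a difference of log2 fold changes (fat minus liver) of -2.45. The test of that difference had an adjusted p of 0.23 (edgeR) and did not pass, and liver counts were 3 to 11. In liver, Cd4 entered the genotype test through its KO libraries alone.

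Gzmb stood out in the same way at very low counts. Its KO minus WT difference in CPM was lower in fat than in liver by -0.412 CPM, with 0 to 6 counts per library. It was too rare for the main test, and without a filter on low counts the difference had an adjusted p of 0.31 (edgeR) and did not pass.

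Groups held 3 libraries, so no single library was screened as far from its group.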

How the results depend on the processing

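No setting called a lymphocyte gene between genotypes. In fat, the number of rows below 0 was 21 to 28 under the settings that kept all libraries and 16 to 28 when 1 was left out (16 without WT WAT 2), and the median was -0.82 to -0.70 and -1.01 to -0.17. In liver the median of 0.56 was 0.16 without a filter, 0.17 with DESeq2 and 0.17 with all 4 groups in 1 fit, and 0.42 to 0.92 when 1 library was left out. Rows above 0 in liver were 18 without a filter, 18 with DESeq2, 16 with all 4 groups and 3 with the stricter filter, and 4 to 5 when 1 library was left out; the sets of rows tested differ. Over all genes, 21 calls in liver became 378 without a filter and 1 with all 4 groups. The fat minus liver calls in WT were 13 to 23 when 1 library was left out (13 without WT liver 3) and the median 2.22 to 3.33; in KO they were 10 to 16, with medians of 2.30 under the stricter filter and 2.16 with all 4 groups. The median of all genes between tissues moved from 0.055 to 0.229 with upper quartile factors and to -0.148 with GC and length trends removed (WT).

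Signs turned for the genes below, none called, and the cause was not tested. Ccl21a on the scaffold had -1.51 with voom, -1.14 with the replicate block and -1.11 with the block and trends removed, and -3.73 to 1.38 with 1 library left out. Cd247 had 0.0015 with trends removed, 0.0059 with the block too, and -0.25 to 0.056 with 1 left out. The ranges with 1 left out were -0.75 to 0.49 for Cd79b, -0.13 to 0.80 for Ighm, -1.67 to 1.16 for Il7r, -0.91 to 0.31 for Ltb and -0.86 to 0.0053 for Zap70. Without WT WAT 2, Blk (0.73), Cd79a (0.86), Pax5 (0.35), Fcer2a (0.69), Cxcr5 (0.17) and Ccr7 (0.07) also turned. Cd79a was 0.15 with voom and 0.14 with the replicate block. Ccr7 was 0.06 with voom, 0.19 without WT WAT 3 and 0.13 without KO WAT 2. In liver, Cd79b was -0.25 without WT liver 3.

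Same-numbered libraries deviated together at most weakly (correlations of -0.0667 to 0.159), and the main fits did not pair them. Such correlations cannot show whether liver and fat libraries of the same number came from the same animal. With the replicate block 0 genotype calls remained 0, and tissue calls were 19 in WT and 10 in KO.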
